A study of Mus musculus with 2 samples.

Results

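The 9 genes described here are genes that nuclear factor κB (NF-κB) induces and that feed back on it, measured in tumor-infiltrating T cells: 4 subunits of the factor (Nfkb1, Nfkb2, Rel and Relb), 3 members of the inhibitor of κB family (Nfkbia, Nfkbid and Bcl3), the ubiquitin-editing enzyme gene Tnfaip3 and the adaptor gene Traf1. They were taken by name, and all 9 were found once among the 31053 mouse genes measured. The genes lie on chromosome 3 (Nfkb1), 19 (Nfkb2), 11 (Rel), 12 (Nfkbia), 10 (Tnfaip3) and 2 (Traf1), and Relb, Nfkbid and Bcl3 share chromosome 7 in GRCm38.

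NF-κB dimers are held in the cytoplasm by inhibitors of κB until signals from antigen receptors, TNF-family receptors or IL-1–family receptors lead to the destruction of the inhibitor. The freed dimers then switch on genes that include their own inhibitors and subunits, so that transcripts of these genes are widely used as a readout of recent NF-κB activity. In regulatory T (Treg) cells, Rel is needed for the expression of Foxp3, and the IL-33 receptor chain IL1RL1 signals to NF-κB through MYD88.

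The study compared C57BL/6 mice bearing B16 melanoma, a transplantable tumor line, with mice bearing B16–IL-33, the same line engineered to overexpress secreted IL-33. T cells of both tumors were stained with hashtag antibodies, sorted, pooled and loaded as 1 sample, which gave a gene expression, a hashtag and a TCR library. The number of mice behind each tumor is not given in the sources used here. Both tumors share 1 gene expression library, the labels list no replicates, and every interval below is a 95% interval that covers counting error only, not the spread between animals. Of 14035 barcodes, 9082 had 200 to 2500 detected genes and under 5% mitochondrial unique molecular identifiers (UMIs), with a median of 2466.5 UMIs.

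Cells were grouped by their own UMIs. Treg cells (2609) had Foxp3 and no Cd8a or Cd8b1, conventional CD4+ T (Tconv) cells (1769) had Cd4 without Foxp3 or CD8 genes, CD8+ T cells (1259) had more CD8 than Cd4 and Foxp3 UMIs, and natural killer T (NKT) cells (81) had Zbtb16 without Foxp3 or CD8 genes. The last group shared 21 cells with the Tconv group, and of its 27 cells with a productive alpha chain only 16 carried the TRAV11–TRAJ18 chain of invariant NKT cells, so the name is held here by Zbtb16 alone. All 5 T cell markers were present in each group, at 2979 to 3737 counts per 1000000 UMIs (CPM) summed. Transcripts of other cells were present as well: 12 myeloid markers summed to 609 to 735 CPM in the 4 groups, 8 dendritic cell markers to 869 CPM in Treg cells against 424 in Tconv and 189 in CD8+ T cells, and 5 melanocyte markers to at most 15.7 CPM.

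Promoters from RefSeq (GRCm38.p6, 250 bases before to 50 after each start) were held for 7 of the 9 genes, Nfkb1 and Relb not among them. They are shown because κB sites are the DNA on which such feedback acts. The κB consensus searched has 10 bases, namely 3 G, a purine, any base, 3 pyrimidines and 2 C, and was sought on both strands. It was found in 8 of the 12 promoters of these genes and in at least 1 promoter of 6 of the 7 genes, whereas 5.8% of all 32851 promoters and 6.55% of all 27025 genes held it. The 12 promoters are not independent, since starts of 1 gene can overlap. The stretches below run 5′ to 3′ on the coding strand from 120 bases before the start to base 30 of the transcript, with each match in capitals.
Nfkbia, chr12:55492618-55492767, minus strand: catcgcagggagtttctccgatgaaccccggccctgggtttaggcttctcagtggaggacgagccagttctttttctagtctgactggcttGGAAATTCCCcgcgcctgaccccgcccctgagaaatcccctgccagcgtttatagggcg
Bcl3, chr7:19822726-19822875, minus strand: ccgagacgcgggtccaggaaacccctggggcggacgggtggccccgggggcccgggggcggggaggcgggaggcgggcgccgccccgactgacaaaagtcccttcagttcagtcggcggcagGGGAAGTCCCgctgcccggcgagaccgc
Rel, chr11:23770940-23771089, minus strand: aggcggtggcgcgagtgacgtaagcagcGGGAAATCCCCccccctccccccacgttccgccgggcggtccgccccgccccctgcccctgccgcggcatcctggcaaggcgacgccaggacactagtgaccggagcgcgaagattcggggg
Nfkb2, chr19:46304617-46304766, plus strand: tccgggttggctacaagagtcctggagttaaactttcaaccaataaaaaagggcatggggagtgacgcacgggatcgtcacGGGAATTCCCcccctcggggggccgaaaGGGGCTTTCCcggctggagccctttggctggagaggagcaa
Tnfaip3, chr10:19015381-19015530, minus strand: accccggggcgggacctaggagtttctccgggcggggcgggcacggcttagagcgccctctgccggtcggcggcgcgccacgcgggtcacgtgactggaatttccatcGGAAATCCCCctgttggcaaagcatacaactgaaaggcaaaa

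The match in Nfkbia began 29 bases before the start and that in Tnfaip3 12 bases before it. Nfkb2 had matches beginning 39 and 11 bases before its first start, the former on both strands, and Bcl3 had its match at bases 3 to 12 of the transcript. In Rel, matches beginning 92 and 91 bases before the start overlapped. One of the 3 Nfkbid starts had a match, which began 226 bases upstream and lies outside a stretch of the length printed, and none was found in the single Traf1 promoter. A match is a description of letters and was not tested as a binding site.

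The first question was how the 9 genes differ between T cell lineages. Levels are given as CPM of summed UMIs, and a ratio of CPM of at least 1.5 in either direction is called past the fold. CD8+ T cells had the lowest or near-lowest level of each of the 9 genes, and Treg cells led in Nfkb2, Rel, Relb, Traf1, Bcl3 and, with NKT cells, Nfkbia and Nfkb1.

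The subunit genes were graded. Nfkb1, which encodes p105 and its product p50, was at 136 CPM (95% interval 129 to 145) in Treg cells, 117 (108 to 127) in Tconv cells, 75.4 (68.0 to 83.4) in CD8+ T cells and 140.1 (99.7 to 192) in NKT cells. Nfkb2, the gene of p100 and p52 of the noncanonical pathway, was at 93.7 CPM in Treg cells, 70.7 in Tconv cells, 60.2 in CD8+ T cells and 46.7 (24.9 to 79.9) in NKT cells. Rel, the c-Rel gene, was at 104 CPM (97.3 to 111) in Treg cells, 76.1 (68.7 to 84.1) in Tconv cells, 60.2 (53.6 to 67.3) in CD8+ T cells and 53.9 (30.2 to 88.9) in NKT cells. Treg cells thus stood above Tconv cells, and Tconv above CD8+ T cells, without overlap of the intervals for Nfkb1 and Rel. The NKT intervals of Nfkb2 and Rel lay below those of Treg cells but overlapped those of Tconv and CD8+ T cells. The NKT interval of Nfkb1 lay above that of CD8+ T cells and overlapped those of Treg and Tconv cells. Relb, which encodes the partner of p52, was at 60.5 CPM (55.3 to 66.1) in Treg cells and 52.4 (46.3 to 59.1) in Tconv cells, intervals that overlap, and at 28.3 (23.9 to 33.3) in CD8+ T cells and 32.3 (14.8 to 61.4) in NKT cells.

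Among the inhibitors, Nfkbia, which encodes IκBα, was at 1417 CPM (1392 to 1443) in Treg cells, 1347 (1214 to 1491) in NKT cells, 1004 (976 to 1032) in Tconv cells and 638 (616 to 660) in CD8+ T cells. The intervals of Treg cells and of the Zbtb16-defined group overlapped and lay above those of Tconv and CD8+ T cells. The 16 Zbtb16-defined cells with the invariant alpha chain were at 605 CPM (426 to 834) of Nfkbia, however, below the Treg and Tconv intervals, and the 11 with another alpha chain at 1325 CPM (990 to 1737). Bcl3, an atypical nuclear member of the family that binds p50 and p52 homodimers, was at 155 CPM (146 to 164) in Treg cells, 77.9 (70.4 to 86.0) in Tconv cells, 64.7 (38.3 to 102) in NKT cells and 48.5 (42.6 to 55.0) in CD8+ T cells. Its interval in Treg cells lay above those of all other groups. Nfkbid, the gene of the nuclear protein IκBNS, departed from this order, with 93.4 CPM (61.0 to 137) in NKT cells, 69.7 (62.6 to 77.4) in Tconv cells, 64.5 (59.2 to 70.2) in Treg cells and 46.5 (40.8 to 52.9) in CD8+ T cells, so that the first 3 groups overlapped in turn.

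Tnfaip3, whose product A20 shuts off signalling to the IκB kinase, was the one gene that Treg cells had at a lower level than Tconv cells beyond counting error, at 342 CPM (329 to 355) against 427 (409 to 446). NKT cells were at 424 CPM (351 to 508) of Tnfaip3 and CD8+ T cells at 304 (289 to 319). Traf1, which encodes an adaptor of TNF-family receptors, was at 341 CPM (328 to 353) in Treg cells, 255 (241 to 269) in Tconv cells, 178 (167 to 190) in CD8+ T cells and 144 (103 to 196) in NKT cells.

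**Figure D1:**
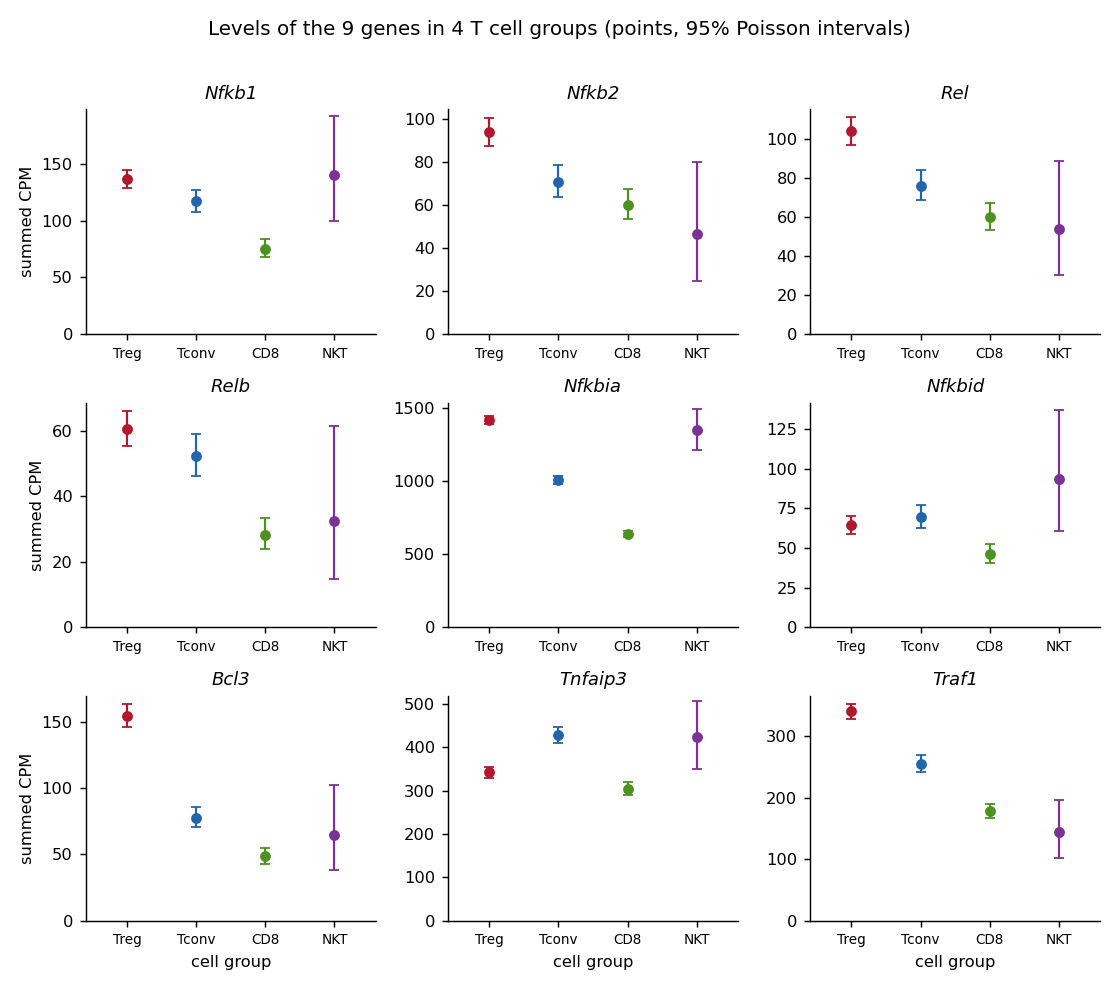
Summed CPM (linear axis from 0) of each of the 9 genes in Treg, Tconv, CD8+ and NKT groups, with 95% Poisson intervals. Bcl3 at 155 CPM and Traf1 at 341 CPM were highest in Treg cells, whereas Tnfaip3 was higher in Tconv cells at 427 CPM.

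Against CD8+ T cells, 7 of the 9 genes were past the fold in Treg cells and none below, where 23.5% of the 10269 genes tested were past it upward and 8.37% downward. A gene was tested if at least 10 UMIs were expected in each group at equal CPM. The ratio was 3.19 (2.78 to 3.68) for Bcl3, 2.22 (2.14 to 2.31) for Nfkbia, 2.14 (1.77 to 2.59) for Relb, 1.91 (1.77 to 2.06) for Traf1, 1.81 (1.61 to 2.04) for Nfkb1, 1.73 (1.52 to 1.98) for Rel and 1.56 (1.36 to 1.78) for Nfkb2. The ratios of Nfkbid, 1.39 (1.19 to 1.62), and Tnfaip3, 1.13 (1.06 to 1.198), were smaller. The median ratio was 1.81 over the 9 genes and 1.16 over all genes tested, a log2 shift of 0.21 in all genes. When CPM were rescaled by that median, 5 of the 9 genes were past the fold, all upward. Of all genes, 28.7% were past it in either direction, 1552 upward and 1399 downward. The share of upward calls among all genes past the fold went from 73.7% to 52.6%.

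**Figure D2:**
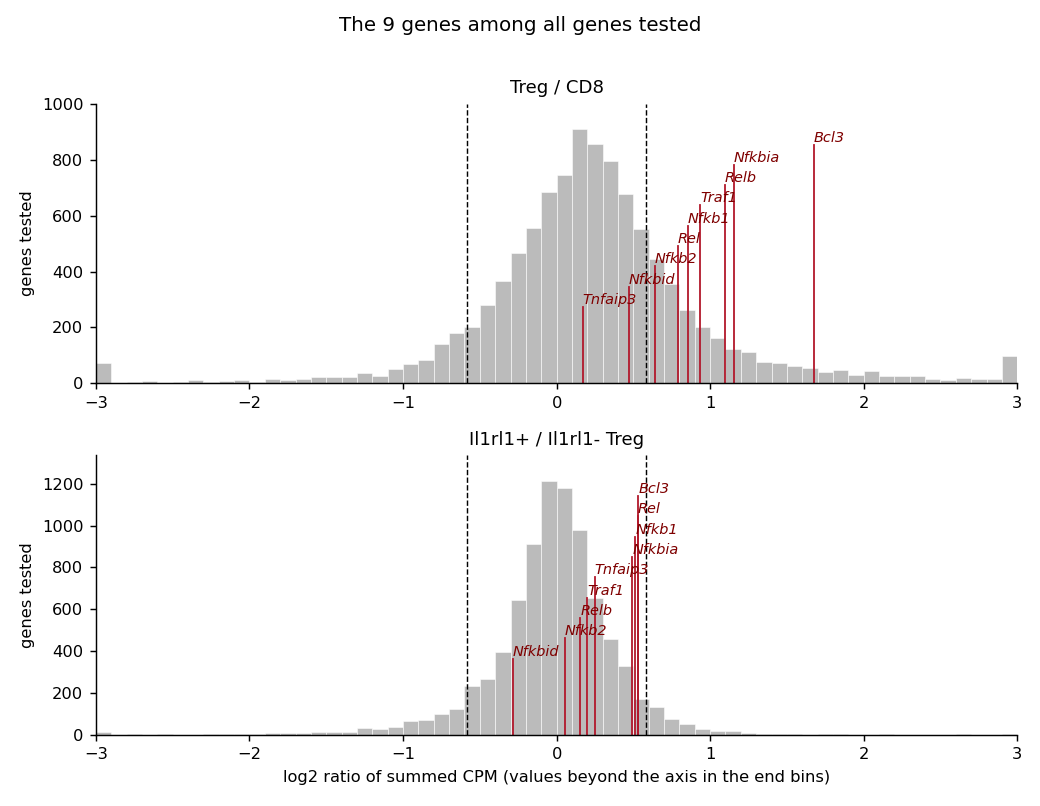
Log2 ratios of summed CPM for all genes tested (gray bars, number of genes per bin of 0.1) with the 9 genes as red lines whose heights only separate the names, and dashed lines at 1.5-fold. The upper panel compares Treg with CD8+ T cells, where 7 of the 9 genes lie past the right line, and the lower panel Treg cells with and without Il1rl1, where none does.

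Against Tconv cells the difference was smaller. Only Bcl3 was past the fold in Treg cells, at 1.99 (1.77 to 2.23), beside 13.8% of the 10274 genes tested upward and 7.17% downward. Nfkbia at 1.41 (1.37 to 1.46), Rel at 1.37 (1.21 to 1.55), Traf1 at 1.34, Nfkb2 at 1.33 (1.17 to 1.51) and Nfkb1 at 1.17 (1.06 to 1.29) had intervals above 1. The interval of Tnfaip3, 0.80 (0.76 to 0.85), lay below 1, and those of Relb and Nfkbid held 1. The 9 genes had a median ratio of 1.33, against 1.06 for all genes tested. Of 10 immediate early genes, which stimulation or tissue handling induces, 2 were past the fold downward, Fosb at 0.59 and Ier2 at 0.578, and none upward, with a median ratio of 0.763. Among cells below the median share of immediate early UMIs the ratio of Tnfaip3 was 1.03. Of the Treg cells, 1458 had at least 2 UMIs of myeloid, B cell or melanocyte markers, against 528 Tconv cells. Without these cells 3 of the 9 genes were past the fold, where 24.1% of all genes were in either direction, and the median ratio over the 9 was 1.33.

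Treg cells and the Zbtb16-defined group differed in a split way. Of the 9 genes, 5 were past the fold upward in Treg cells, where 29.6% of 3560 genes tested were, and none downward (6.4% of genes). They were Bcl3 at 2.39 (1.51 to 4.05), Traf1 at 2.37 (1.74 to 3.32), Nfkb2 at 2.01 (1.17 to 3.78), Rel at 1.93 (1.16 to 3.47) and Relb at 1.87 (0.98 to 4.12), the last on only 9 UMIs in the smaller group. Nfkbia, Nfkb1, Tnfaip3 and Nfkbid were at ratios of 1.05 (0.95 to 1.17), 0.97 (0.71 to 1.38), 0.81 (0.67 to 0.98) and 0.69 (0.47 to 1.07). After rescaling by the median of all genes, a log2 shift of 0.24, 6 of the 9 genes were past the fold, 1 of them downward. Of all genes, 33.9% were past it in either direction, 705 upward and 503 downward. The upward share of all genes past the fold went from 82.2% to 58.4%.

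Shares of cells with a UMI were compared after each cell was thinned to 1500 UMIs. Nfkbia was detected in 70.4% (68.4 to 72.3) of 2155 Treg cells, 57.0% (54.4 to 59.6) of 1447 Tconv cells, 50.4% (47.5 to 53.3) of 1151 CD8+ T cells and 62.0% (50.4 to 72.7) of 79 NKT cells. Before thinning these shares were 80.6%, 67.6%, 68.2% and 77.8%, at median depths of 2780, 2498, 3464 and 2939 UMIs. Bcl3 was detected in 21.3% of thinned Treg cells, 9.81% of Tconv, 5.65% of CD8+ T and 12.7% of NKT cells. For comparison Pmel, a melanocyte gene that T cells should lack, was found in 0.371%, 0.415% and 0.174% of thinned Treg, Tconv and CD8+ T cells. A thinned Treg cell held UMIs of 2.23 of the 9 genes on average, a Tconv cell of 1.84, an NKT cell of 1.85 and a CD8+ T cell of 1.48. At least 4 of the 9 genes were detected in 17.4% of Treg, 9.4% of Tconv, 11.4% of the 79 NKT and 5.39% of CD8+ T cells.

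The next question was whether the genes differ between Treg cells with and without Il1rl1, the gene of the IL-33 receptor chain. Il1rl1 was found in 504 of the 2609 Treg cells, with median depths of 2850 and 2772 UMIs with and without it. Nfkbia was at 1845 CPM in Il1rl1+ and 1311 CPM in Il1rl1- Treg cells, a ratio of 1.41 (1.35 to 1.47). Bcl3 was at 206 against 142 CPM, a ratio of 1.45 (1.27 to 1.64), and Rel at 138 against 95.7 CPM, a ratio of 1.44 (1.23 to 1.68). Nfkb1 was at 180 against 126 CPM, a ratio of 1.43 (1.245 to 1.63). These genes of IκBα, BCL-3, c-Rel and p105 formed the upper part of the list, and the rest were closer to 1. Tnfaip3 had a ratio of 1.19 (1.09 to 1.30) and Traf1 of 1.15 (1.05 to 1.255). Nfkb2 at 1.04 (0.87 to 1.24) and Relb at 1.11 (0.89 to 1.38), both of the noncanonical arm, had intervals that held 1, as did Nfkbid at 0.82 (0.65 to 1.03). Both tumors were pooled in this split, and 12 of 245 B16-tagged and 13 of 55 B16–IL-33–tagged Treg cells had Il1rl1. Among B16-tagged cells Nfkbia was at 1153 CPM (878 to 1487) with Il1rl1 and 1170 CPM (1100 to 1243) without. Among B16–IL-33–tagged cells it was at 1538 CPM (1159 to 2002) and 1183 CPM (1013 to 1374). Bcl3 had the reverse of its pooled order among B16-tagged cells. It was at 19.5 CPM (0.495 to 109) on 1 UMI with Il1rl1 and 153 CPM (128 to 181) without. Among B16–IL-33–tagged cells Bcl3 was at 252 CPM (115 to 478) on 9 UMIs and 165 CPM (106 to 246). Tnfaip3 was at 684 CPM (476 to 951) with Il1rl1 and 287 CPM (253 to 324) without among B16-tagged cells. Among B16–IL-33–tagged cells Tnfaip3 was at 475 CPM (277 to 761) and 248 CPM (174 to 343). Rel and Nfkb1 were higher with Il1rl1 in both tumors, with overlapping intervals on few UMIs. The part of the tumor in the ratios by Il1rl1 was not tested.

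None of the 9 genes was past 1.5-fold between Il1rl1+ and Il1rl1- Treg cells, where 4.3% of the 8345 genes tested were past it upward and 7.07% downward. At a lower threshold of 25% higher CPM, 4 of the 9 genes were past it, beside 14.3% of all genes tested. The median ratio was 1.19 over the 9 genes and 0.997 over all genes. Of the genes tested, 440 had a higher ratio than Bcl3, 454 than Rel, 484 than Nfkb1 and 531 than Nfkbia. In thinned cells, Nfkbia was detected in 79.5% (75.4 to 83.3) of Il1rl1+ and 68.1% (65.8 to 70.3) of Il1rl1- Treg cells, and 25.1% against 15.5% of cells held at least 4 of the 9 genes.

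Other features moved with Il1rl1. Myeloid markers summed to 471 CPM in Il1rl1+ against 800 CPM in Il1rl1- Treg cells, with all 12 present in both, and 8 dendritic cell markers to 594 against 937 CPM, with Flt3, Clec9a and Cd209a at 0 in Il1rl1+ cells. The cytotoxic genes Gzmk, Nkg7 and Cst7 summed to 336 against 843 CPM. In the other direction, 5 B cell markers summed to 574 against 402 CPM, with Ms4a1 at 0 in Il1rl1+ cells, and immediate early genes to 5977 against 4974 CPM. The 6 quiescence genes summed to 1340 against 943 CPM, with 1 past the fold upward and a median ratio of 0.954. Without cells that had 2 or more UMIs of other cell types' markers, the Nfkbia ratio was 1.52. The Nfkb1 ratio was 1.84 among cells below the median immediate early share and 1.07 among those above it, so for this gene the value depended on that split, whereas Nfkbia stayed between 1.24 and 1.52 over 15 alternatives. Over the same alternatives Bcl3 ranged from 1.19, among cells with 2000 to 4000 UMIs, to 1.49, and Rel from 1.33 to 1.68. Tnfaip3 ranged from 0.905 to 1.26 and Traf1 from 0.978 to 1.33, so both fell below 1 in some alternatives.

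**Figure D3:**
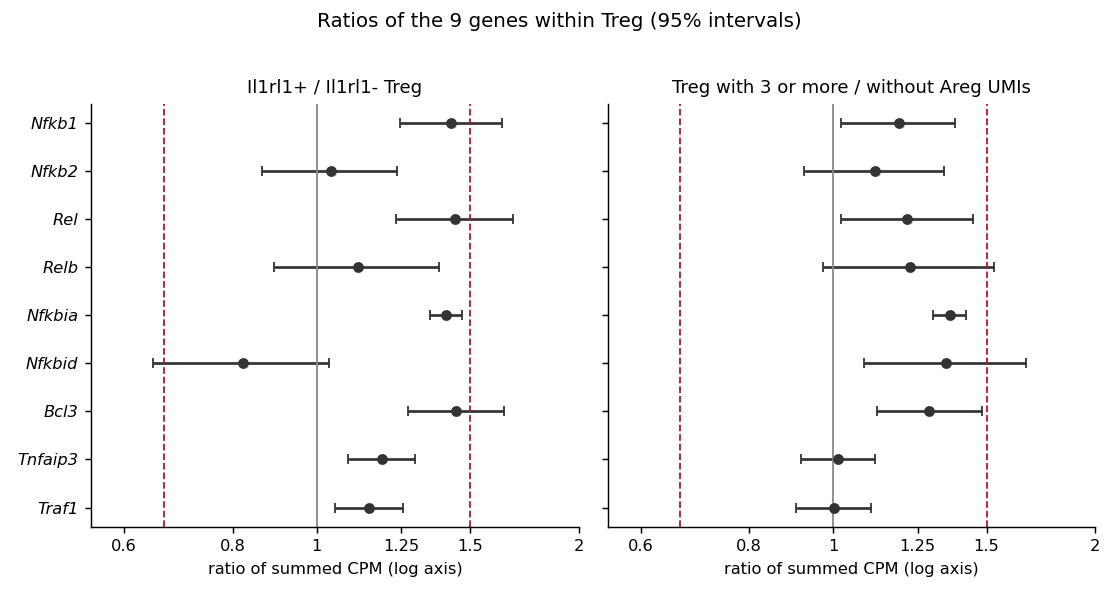
Ratios of summed CPM (log axis) with 95% intervals for the 9 genes between Il1rl1+ and Il1rl1- Treg cells (left) and between Treg cells with 3 or more and without Areg UMIs (right); the gray line marks 1 and the dashed lines 1.5-fold. Bcl3, Rel, Nfkb1 and Nfkbia lie between 1.41 and 1.45 on the left, and Nfkbid is below 1 on the left and at 1.35 on the right.

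Areg encodes amphiregulin, an EGF receptor ligand that tissue Treg cells secrete. Treg cells with 3 or more Areg UMIs (440) were compared with those without Areg (1823), at median depths of 3018 and 2704 UMIs, and 144 of the 440 also had Il1rl1. Nfkbia was at 1776 against 1306 CPM, a ratio of 1.36 (1.30 to 1.42). Nfkbid was at 79.4 against 58.9 CPM, a ratio of 1.35 (1.08 to 1.67), and Bcl3 at 185 against 144 CPM, a ratio of 1.29 (1.12 to 1.48). The ratios of Relb, 1.22 (0.97 to 1.53), Rel, 1.22 (1.02 to 1.45), Nfkb1, 1.19 (1.02 to 1.38), and Nfkb2, 1.12 (0.92 to 1.34), followed. Tnfaip3 at 340.2 against 336 CPM and Traf1 at 339.5 against 339 CPM hardly differed, with intervals of the ratio of 0.92 to 1.12 and 0.91 to 1.11.

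None of the 9 was past 1.5-fold by Areg either, beside 3.22% of the 8137 genes tested upward and 6.3% downward. At 25% higher CPM, 3 of the 9 genes were past it, against 11.8% of all genes. The median ratio was 1.22 over the 9 genes and 0.995 over all. Myeloid markers summed to 479 CPM with 3 or more Areg UMIs and to 869 CPM without Areg, and their part in these ratios was not tested beyond the alternative without marked cells, in which the Nfkbia ratio was 1.5.

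Because Il1rl1 and Areg overlapped, the Treg cells were split by both. Nfkbia was at 1238 CPM in the 1537 cells with neither, 1372 CPM with 1 or 2 Areg UMIs and 1588 CPM with 3 or more among Il1rl1- cells, and at 1645, 1944 and 2188 CPM at the same Areg levels among Il1rl1+ cells. It was higher with Il1rl1 at each Areg level and higher with more Areg in both Il1rl1 classes, with ratios for Il1rl1 of 1.33 (1.26 to 1.41), 1.42 (1.27 to 1.58) and 1.38 (1.27 to 1.49) from no Areg to 3 or more UMIs. For Areg, the ratios of Nfkbia were 1.33 (1.23 to 1.44) among Il1rl1+ and 1.28 (1.21 to 1.36) among Il1rl1- cells. The groups with both and with neither differed 1.77-fold (1.65 to 1.89) in Nfkbia and 1.78-fold (1.45 to 2.18) in Bcl3. The differences were 1.74-fold (1.39 to 2.16) in Nfkb1 and 1.54-fold (1.17 to 2.003) in Rel. Only these 4 of the 9 genes were past the fold, beside 6.383% of the 5060 genes tested upward and 9.032% downward. Tnfaip3 had a smaller ratio of 1.213 (1.037 to 1.413). The ratios of Nfkb2, 1.306, Relb, 1.197, Traf1, 1.126, and Nfkbid, 0.9602, had intervals that held 1.

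In Il1rl1- cells, 3 or more Areg UMIs went with a ratio of 1.49 (1.17 to 1.90) in Nfkbid but with 1.04 (0.85 to 1.26) in Nfkb1 and 1.01 (0.80 to 1.27) in Nfkb2. In Il1rl1+ cells the same Areg ratios were 1.06 (0.64 to 1.73) in Nfkbid, 1.28 (0.985 to 1.66) in Nfkb1 and 1.40 (0.974 to 1.99) in Nfkb2, and all of these intervals held 1. Nfkbid was at 89.4 CPM in Il1rl1- and 57.5 CPM in Il1rl1+ cells with 3 or more Areg UMIs, a ratio of 0.643 (0.402 to 0.997) on 92 and 27 UMIs. Nfkb1 in the same cells was at 127 and 213 CPM, a ratio of 1.67 (1.28 to 2.19). Rel was highest, at 199 CPM (48 UMIs), in the 74 Il1rl1+ cells with 1 or 2 Areg UMIs, with an interval of 146 to 263 CPM that overlapped that of Il1rl1+ cells with 3 or more Areg UMIs (109 to 179) but not that of Il1rl1+ cells without Areg (99.6 to 145.5). Whether the ratio by one gene differed with the level of the other was not tested.

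**Figure D4:**
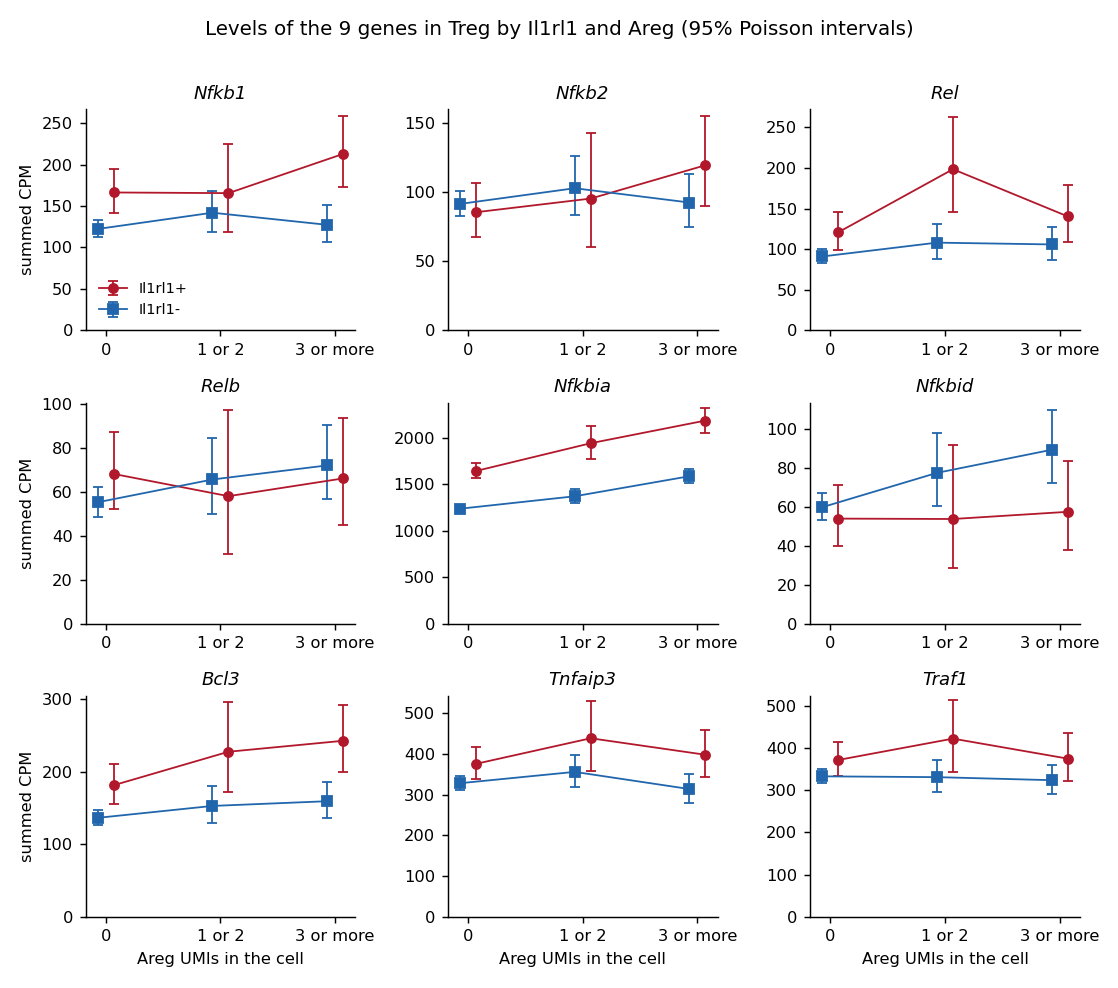
Summed CPM (linear axis from 0, 95% Poisson intervals) of the 9 genes in Il1rl1+ (red circles) and Il1rl1- (blue squares) Treg cells by the number of Areg UMIs in the cell. Nfkbia runs from 1238 CPM in cells with neither to 2188 CPM in cells with both, whereas the 2 lines of Relb and of Nfkb2 cross.

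Tnfrsf9 encodes the costimulatory receptor 4-1BB, which signals through TRAF1 and TRAF2. Nfkb2 was at 103 CPM in the 1991 Treg cells with Tnfrsf9 and 55.7 CPM in the 618 without, a ratio of 1.85 (1.48 to 2.33), and was the only gene of the 9 past the fold, beside 9.43% of the 8307 genes tested upward and 5.48% downward. Rel at 1.47 (1.21 to 1.79), Bcl3 at 1.30 (1.12 to 1.52), Nfkb1 at 1.26 (1.08 to 1.49), Nfkbia at 1.24 (1.18 to 1.30) and Traf1 at 1.18 (1.07 to 1.30) had intervals above 1, and Tnfaip3 at 0.88 (0.80 to 0.96) below 1. Nfkb2, at 1.04 by Il1rl1, and Nfkbia, at 1.41 by Il1rl1, thus stood in the opposite order in the Tnfrsf9 comparison. The cells with Tnfrsf9 had more UMIs, with a median of 3008 against 2220.5, fewer quiescence transcripts, at 896 against 1549 CPM over 6 genes, and fewer myeloid markers, at 583 against 1366 CPM. Among cells with 2000 to 4000 UMIs, 4 of the 9 genes were past the fold, where 19.9% of all genes were in either direction.

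The tumor of origin could be read only for cells with a hashtag. In the hashtag library 1483 UMIs were on B16 tags and 247 on B16–IL-33 tags, while 22837655 matched no tag. A cell could thus be assigned by 1 tag UMI, and the share of stray tag UMIs was not tested. Cells whose tag UMIs, 1 or more, were all on the tags of a single tumor were assigned to it, which left 245 Treg cells for B16 and 55 for B16–IL-33 among 11756 barcodes found in both libraries. Nfkbia was at 1169 CPM in B16-tagged and 1253 CPM in B16–IL-33–tagged Treg cells, a ratio of 1.07 (0.93 to 1.24). Rel was at 63.8 and 160.1 CPM on 60 and 29 UMIs, a ratio of 2.51 (1.55 to 3.97), and was the 1 gene past the fold of the 7 tested. Upward 8.93% and downward 11.3% of 2474 genes were past it. The remaining tested genes had intervals that held 1, such as Bcl3 at 1.251 (0.83 to 1.84), Nfkb1 at 1.40 (0.86 to 2.19) and Traf1 at 1.06 (0.78 to 1.42), and Nfkbid and Relb had too few UMIs to be tested.

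The Rel value rested on few cells. By tag, Rel was at 90.4 CPM (59.6 to 132) for B16_1, 52.1 (35.6 to 73.5) for B16_2, 119 (43.9 to 260) for B16IL33_1 and 176 (111 to 264) for B16IL33_2. Both B16–IL-33 tags were above both B16 tags, but only the tags numbered 2 had intervals that did not overlap. The ratio was 1.12 when cells were thinned to 1500 UMIs and 1.22, from 17 and 100 cells, without cells that had other cell types' markers, and 3.38 among cells below the median immediate early share. It was 1.32 for the tags numbered 1 and 3.37 for those numbered 2. Such markers were unequal, since myeloid markers summed to 3716 CPM in B16–IL-33–tagged and 1414 CPM in B16-tagged Treg cells and dendritic cell markers to 4610 and 1283 CPM. In the B16–IL-33–tagged cells C1qa, Apoe, Adgre1, Xcr1 and Cd209a were at 0, and in the B16-tagged cells Flt3, Clec9a, Cd209a and Batf3 were. Among Il1rl1- Treg cells alone the Rel ratio was 2.11 (1.19 to 3.62), on 19 and 55 UMIs. Their part in the Rel ratio was not tested further.

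The tags named for 1 tumor also differed from each other. Nfkbia was at 1479 CPM (1345 to 1624) in Treg cells of tag B16_1 and 1037 CPM (958 to 1120) in those of B16_2, a ratio of 1.43 (1.26 to 1.61), which is as large as the ratio by Il1rl1. Relb was at 33.5 and 74.9 CPM in the same tags, a ratio of 0.447 (0.201 to 0.898). Between the tags B16IL33_1 and B16IL33_2, Nfkbia was at 1434 CPM (1122 to 1806) and 1184 CPM (1005 to 1386). Immediate early genes summed to 5680 CPM for B16_1 and 3761 CPM for B16_2. Outside Treg cells, Nfkbia was at 961 CPM in B16-tagged and 968 CPM in B16–IL-33–tagged Tconv cells, and at 589 and 416 CPM in CD8+ T cells, where the smaller groups held 17 and 19 cells.

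**Figure D5:**
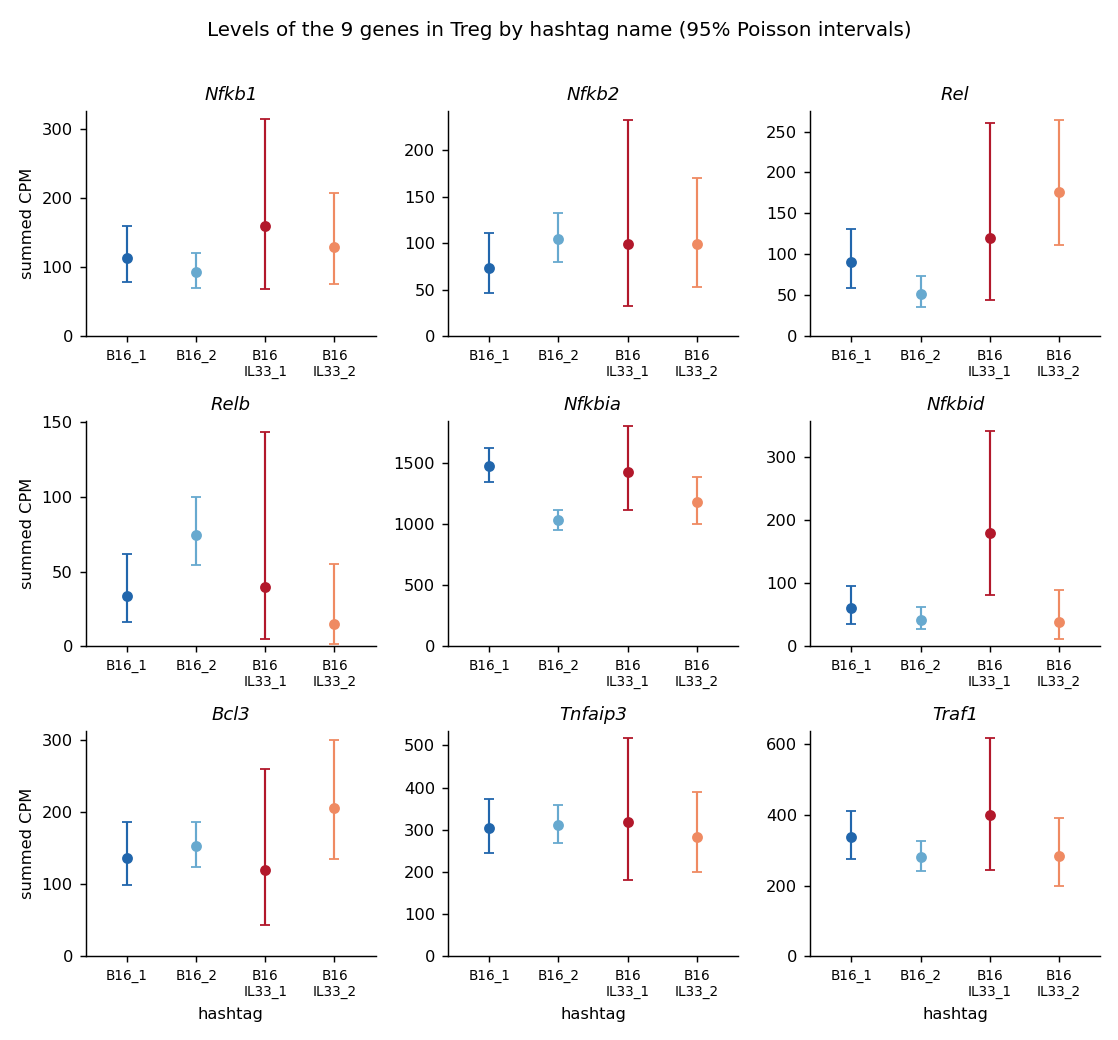
Summed CPM (linear axis from 0, 95% Poisson intervals) of the 9 genes in Treg cells by the 4 hashtags. Nfkbia is at 1479 CPM for B16_1 and 1037 CPM for B16_2, a gap between tags of the same tumor, and Rel ranges from 52.1 to 176 CPM.

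The rest of the pathway was followed in lists of genes. Between Treg and CD8+ T cells, 9 of 13 receptors tested that lie upstream of NF-κB were past the fold upward and 1 downward, with a median ratio of 2.65. Over all 10269 genes tested, 23.5% were past it upward and 8.37% downward, which is the background for each list here. Tnfrsf4, which encodes OX40, had a ratio of 9.67 (8.998 to 10.4), Tnfrsf9 of 4.81, Tnfrsf18 (GITR) of 4.49 and Tnfrsf1b (TNF receptor 2) of 3.93, and Il18rap was lower at 0.37 (0.307 to 0.444). Of 23 adaptors and kinases, 8 were past the fold upward and 1 downward, with a median of 1.35. Malt1, the paracaspase of the antigen receptor pathway, was at 2.79 (2.46 to 3.17), Birc2 at 2.54 and Traf3 at 2.42, and Prkcq, which encodes a protein kinase of T cells, at 0.614 (0.540 to 0.698). Of 14 other subunits and regulators, 8 were past the fold upward and none downward and the median was 1.59. The largest ratio in that list, 5.16 (4.80 to 5.55), was that of Ikzf2, which encodes the Treg transcription factor Helios rather than a known regulator of NF-κB, followed by Tnip2 at 2.25 (1.51 to 3.45) and Tnip1 at 1.99 (1.74 to 2.30), both genes of A20-binding proteins, while Rela was at 1.33 (1.12 to 1.59). Of 19 further inducible targets, 9 were past the fold upward and 3 downward, among them Il2ra at 8.25, Cd83 at 3.51 and Bcl2l1 at 2.73 upward and Plek at 0.56 downward.

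By Il1rl1 the same lists differed less, beside 4.3% of all 8345 genes tested past the fold upward and 7.07% downward. Of 10 receptors tested, 2 were past the fold upward, Il18rap at 2.98 (2.21 to 4.004) and Tnfrsf25 (death receptor 3) at 2.80 (2.20 to 3.54), and 1 downward, Cd27 at 0.643 (0.575 to 0.717). None of 22 adaptors and kinases was past it, with Traf3 at 1.47 (1.18 to 1.82), Malt1 at 1.43 (1.26 to 1.61) and Prkcq at 1.41 (1.14 to 1.73) farthest from 1. None of 14 regulators was past it, with Tnip1 at 1.37 (1.17 to 1.60), Nfkbiz at 1.32 (1.15 to 1.504) and Rela at 0.816 (0.623 to 1.06). Of 19 inducible targets, 3 were past the fold upward, Il2ra at 1.86 (1.74 to 1.998), Cd83 at 1.60 and Myc at 1.52 (1.21 to 1.90), and 2 downward, Plek at 0.409 (0.267 to 0.604) and Bcl2a1d at 0.597 (0.432 to 0.811), whose reads may be shared with its near-identical paralogs. The list as a whole had a median ratio of 1.02, beside 1.19 for the 9 feedback genes.

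By Areg, 2 of 11 receptors were past the fold upward, Il1rl1 itself at 1.95 (1.69 to 2.25) and Tnfrsf25 at 1.60 (1.21 to 2.11), and the median over the receptors was 1.26. Over all 8137 genes tested, 3.22% were past the fold upward and 6.3% downward. None of 22 adaptors and kinases was past it upward and 1 was downward, with Birc2 at 1.48 (1.249 to 1.74) and Traf3 at 1.39 (1.09 to 1.76). Of 19 inducible targets, 2 were past the fold upward and 1 downward. Il2ra at 1.68 (1.56 to 1.81) was higher and Ier3, a stress-induced survival gene, was lower at 0.426 (0.275 to 0.636), and the median was 1.05. Of 11 genes of activated Treg cells tested, 3 were past the fold upward, including Ccr8 at 1.59 (1.41 to 1.79).

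Between Treg and Tconv cells, 6 of 14 receptors were past the fold upward and 2 downward, the latter both chains of the IL-18 receptor, Il18r1 at 0.536 (0.468 to 0.613) and Il18rap at 0.525. Over all 10274 genes tested, 13.8% were past the fold upward and 7.17% downward. All but 1 of 12 activated Treg genes were past it, and 4 of 6 quiescence genes were past it downward, such as Tcf7 at 0.187 (0.167 to 0.209) and Lef1 at 0.401.

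Finally, the 9 genes were compared in shape over 9 groups that share no cell, namely 6 of Treg cells by Il1rl1 and Areg, CD8+ T cells, Tconv cells without Zbtb16 and NKT cells. Pearson's r of log2(CPM + 1) with the mean of the other 8 was 0.97 for Bcl3, 0.89 for Nfkbia, 0.87 for Rel and Relb, 0.86 for Traf1, 0.83 for Nfkb1 and 0.82 for Nfkb2, but 0.25 for Tnfaip3 and -0.08 for Nfkbid. The groups share 1 library and 6 of the 9 are Treg cells, so these values describe the groups and carry no test. Among 3012 genes with at least 10 UMIs expected in the smallest group, the 10 outside the list whose profile was most like the mean of the 9 were Cdipt and Sqstm1 (r of 0.996 and 0.995), Spin1 and Cdk2ap2 (0.98), and Rnf125, Gpx4, Icos, Gna13, Faim and Vrk1 (0.97). Icos, a costimulatory receptor gene, ran from 193 CPM in CD8+ T cells to 1151 CPM in Treg cells with Il1rl1 and 3 or more Areg UMIs.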

How the data were processed

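The authors deposited counts of UMIs per gene and barcode, hashtag counts and TCR contig counts, on a reference that joins mm10 with human genes. Cell Ranger is given as 3.1.0 in the matrix header and as 6.1.1 in the submitters' processing notes. Only mouse UMIs (43420305) were used, and the number of detected genes was taken over genes found in at least 4 barcodes. In Python 3.11.15 (NumPy 2.4.6, SciPy 1.17.1), UMIs were summed per group as CPM with exact Poisson intervals. Ratios had exact conditional binomial intervals and shares exact binomial ones. The intervals of CPM and ratios, but not those of shares, were tested on simulated Poisson counts. Such counts have the error that the intervals assume and no spread between cells. No p-value was computed, since cells of 1 pool are not replicates. The 9 genes, the lists, the rule for genes named from lists (at most 10 a list, at least 30 UMIs expected in each group, and the 10 genes most like the 9 in profile) and the comparisons were chosen with earlier results of these data known. Genes that define a group were left out of the lists in that comparison. No doublet caller was run, and 428 cells with 2 or more productive beta chains were left out as an alternative. Tag UMIs were few, 1483 on B16 and 247 on B16–IL-33 tags, beside 22837655 that matched no tag.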

Additional observations from a re-analysis of the deposited data

How the results depend on the processing

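Over 129 recomputed counts of genes past the fold, 89 stayed within 1.5 times the reported count and 40 did not. For Treg against Tconv cells (1 reported), 4 genes were past the fold at 2000 to 4000 UMIs, 3 without cells with other cell types' markers, 5 at 25% higher CPM and 0 at a fold of 2. Against CD8+ T cells (7), 3 were past a fold of 2, and against NKT cells (5), 3 at a fold of 2, 2 with 30 expected UMIs or in cells with the invariant chain, and 1 with 2 Zbtb16 UMIs. By Il1rl1 (0), 1 gene was past the fold without a gene limit, thinned, without marked cells, below or (downward) above the median immediate early share, with 2 Foxp3 UMIs or with 2 Il1rl1 UMIs, 2 with 1 beta chain and 4 at 25%. By Areg (0), 1 gene was with 1 beta chain or without marked cells and 3 at 25%. By Tnfrsf9 (1), 4 were at 2000 to 4000 UMIs or below the median immediate early share, 3 with 1 beta chain or without marked cells, 2 without cycling cells, above the median immediate early share or with 2 Foxp3 UMIs, 5 at 25% and 0 at a fold of 2. By tumor (1), 3 were with mitochondrial UMIs under 10%, at 25% or with no minimum, 2 above the median immediate early share or with 2 Foxp3 UMIs, and 0 thinned, below it, with 30 expected UMIs or with the tags numbered 1 or 2 alone. Rel had too few expected UMIs to be tested below that share (ratio 3.38), with 30 expected UMIs (2.51) and for the tags numbered 2 (3.37). The cause of the other changes was not tested.

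Over the comparisons other than NKT and Tnfrsf9, 618 ratios of single genes were recomputed, of which 54 crossed 1, none of them of a gene past the fold. Ratios that moved over 1.5 times were 10 by tumor and, against CD8+ T cells, Bcl3 at 4.87 among cells with 2000 to 4000 UMIs. No paired analysis was possible because the labels list the pool as 1 sample and do not say what the tag numbers stand for. The depth limits small groups, and 3 UMIs, the limit that a count of 0 allows, came to 59.7 CPM in Treg cells of tag B16IL33_1.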
